A study of Mus musculus with 10 samples.

Results

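Short-chain fatty acid and lactate transport is described here by 8 genes chosen by symbol: the carriers Slc5a8, Slc13a2, Slc16a1, Slc16a3 and Slc16a7, the carrier chaperone Bsg, and the receptors Ffar2 and Ffar3. All 8 were among the 24525 genes of the expression table. RNA sequencing of polyadenylated RNA covered 5 colorectal tumours and 5 pieces of adjacent colon from male C57BL/6 mice, 7 weeks old at the start. Both groups had received 1 injection of azoxymethane (AOM, a mutagen, 12.5 mg/kg) and 3 cycles of DSS (dextran sulfate sodium, an agent that damages the gut epithelium), each of 5 days at 2% and 16 days on water, and were sampled 10 weeks after AOM. The adjacent tissue therefore carries the same exposure and is not untreated colon. No library is labelled as coming from the 3 untreated mice of the study. The source label gives 1 mouse for all 10 libraries, whereas the series text speaks of mice in the plural, so the p-values speak only to variation among these libraries, part or all of which may be technical.

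Bacteria in the colon ferment fibre to acetate, propionate and butyrate, and butyrate is the main fuel of mature colonocytes. The sodium-coupled carrier SMCT1, made by Slc5a8, sits in the apical membrane and takes up butyrate, propionate, lactate and pyruvate. The proton-coupled carriers MCT1 (Slc16a1), MCT2 (Slc16a7) and MCT4 (Slc16a3) move the same small acids with a proton, and MCT4 is best known for exporting lactate from glycolytic cells and as a target of the hypoxia factor HIF1. MCT1 and MCT4 need the membrane glycoprotein basigin (Bsg, also called CD147) to reach the cell surface. Slc13a2 encodes NaDC1, a sodium-coupled apical carrier of succinate and citrate. Ffar2 (GPR43) and Ffar3 (GPR41) are G protein-coupled receptors for short-chain fatty acids, found on enteroendocrine cells, with Ffar2 also on neutrophils and Ffar3 on peripheral neurons.

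Transcripts of the short-chain fatty acid carriers Slc5a8 and Slc16a1 and of the succinate and citrate carrier Slc13a2 were much lower in tumours. The transcript of the lactate exporter MCT4 was higher. Mean Slc5a8 fell from 84.4 ± 19.5 to 5.04 ± 4.58 FPKM (± SD over 5 samples in each group), Slc13a2 from 114 ± 25.0 to 6.12 ± 5.76 FPKM and Slc16a1 from 66.1 ± 11.9 to 14.9 ± 5.16 FPKM. Slc16a3 rose from 22.7 ± 15.1 to 67.8 ± 19.5 FPKM. Ffar2 fell from 7.27 ± 1.498 to 1.43 ± 0.53 FPKM. Bsg was the most abundant member and differed least of those tested, at 479 ± 34.7 and 415 ± 32.1 FPKM. FPKM are fragments of a gene scaled to its length and to the mapped fragments of the library, so levels of different genes are compared per length.

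Of the 8 members, 6 reached the mean of at least 1 FPKM required for testing, and each of these 6 had a mean above 1 FPKM in both groups. With limma on log2(FPKM + 1) and Benjamini-Hochberg adjustment over 13016 genes, 1 member was higher and 5 were lower in tumours at an adjusted p of 0.05. In the same fit 76.5% of all genes were called, 57.2% higher and 19.3% lower, so a call by itself is common here, and the sizes below carry more than the count. The groups did not overlap for 4 of the 6 tested members, as for 60.9% of all tested genes. Tumour minus adjacent, the log2 change of the middle gene of all tested was 0.35. With each library's median subtracted, 34.5% of genes were called higher and 33.3% lower. All changes below are log2 changes of FPKM + 1, tumour minus adjacent, and are to be read against that shift.

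**Figure D1:**
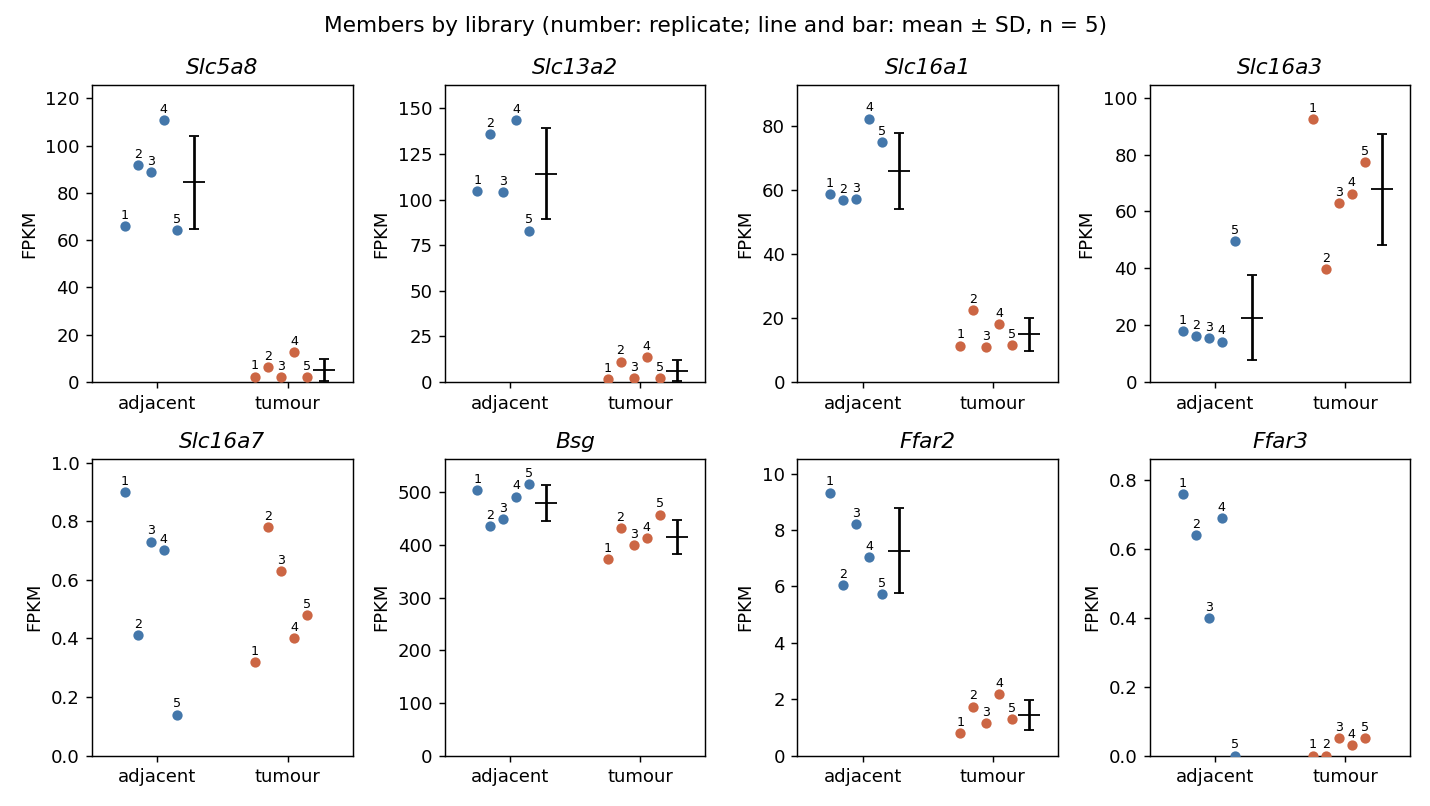
FPKM of the 8 members in each library, adjacent in blue and tumour in orange, with the replicate number at each point; the line and bar give the mean ± SD (n = 5) except for Slc16a7 and Ffar3, which are near 0. Slc5a8, Slc13a2, Slc16a1 and Ffar2 do not overlap between groups, while adjacent sample 5 has a Slc16a3 level of 49.5 FPKM, above tumour 2.

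Slc5a8 was at 66.0, 91.9, 88.9, 111 and 64.4 FPKM in adjacent samples 1 to 5. In tumours 1 to 5 it was at 2.29, 6.15, 2.06, 12.6 and 2.09 FPKM. The lowest adjacent sample lay well above the highest tumour, and tumours 2 and 4 kept the highest tumour levels. The mean was 16.7-fold lower in tumours, and log2(FPKM + 1) changed by -4.07 ± 0.40 (SE; limma adjusted p = 2.35e-05), the 26th lowest of 13016 tested genes. The gene lies on chromosome 10 (88885992 to 88929515, GRCm38).

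Slc13a2, on chromosome 11 (78397276 to 78422281), had the largest fall of the members. It was at 105, 136, 104, 144 and 83.0 FPKM in adjacent samples 1 to 5 and at 1.59, 11.2, 2.1, 13.5 and 2.2 FPKM in tumours 1 to 5. The groups were far apart, and tumours 2 and 4 were again the highest. The mean was 18.7-fold lower in tumours, and log2(FPKM + 1) changed by -4.39 ± 0.49 (SE; limma adjusted p = 3.66e-05), the 17th lowest of all tested genes. The antisense gene Slc13a2os covers 26.2% of its exonic bases in GENCODE M21. The library kit does not mark strand, so reads of that stretch cannot be told apart. Slc13a2os itself was listed at 2.91 to 7.38 FPKM in adjacent samples and at 0.06 to 0.54 FPKM in tumours.

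Slc16a1, on chromosome 3 (104638664 to 104658462), was at 58.8, 56.8, 57.2, 82.4 and 75.0 FPKM in adjacent samples 1 to 5. Tumours 1 to 5 had 11.4, 22.5, 10.9, 18.0 and 11.6 FPKM. The groups did not overlap, and tumours 2 and 4 were the highest as for Slc5a8. The mean was 4.44-fold lower in tumours, and log2(FPKM + 1) changed by -2.12 ± 0.20 (SE; limma adjusted p = 2.13e-05).

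Slc16a3, on chromosome 11 (120948484 to 120959000), went the other way. It was at 17.8, 16.2, 15.55, 14.2 and 49.5 FPKM in adjacent samples 1 to 5 and at 92.5, 39.75, 62.9, 66.3 and 77.5 FPKM in tumours 1 to 5. The other 4 adjacent samples were close together, and adjacent sample 5 overlapped the tumour range through tumour 2. The mean was 2.99-fold higher in tumours, and log2(FPKM + 1) changed by 1.66 ± 0.34 (SE; limma adjusted p = 0.00113). Each tumour exceeded the like-numbered adjacent sample, though the numbers were not taken as pairs. Without adjacent sample 5 the change was 1.97. Slc16a3 ranked 610th among the rises of 13016 genes, a less extreme place than that of Slc5a8 or Slc13a2 among the falls.

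Slc16a7, on chromosome 10 (125219270 to 125389586), was low per length, below 1 FPKM in every library. It was at 0.90, 0.41, 0.73, 0.70 and 0.14 FPKM in adjacent samples 1 to 5 and at 0.32, 0.78, 0.63, 0.40 and 0.48 FPKM in tumours 1 to 5. The groups overlapped. In a fit with no filter on low values, which called 59.3% of genes, its log2 change was -0.04 (SE 0.14, 95% interval -0.35 to 0.28; limma adjusted p = 0.841), and the pseudocount of 1 exceeds these levels. No direction is read from it.

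Bsg, on chromosome 10 (79704358 to 79711979), was at 504, 436, 449, 492 and 515 FPKM in adjacent samples 1 to 5 and at 373, 432, 399, 413 and 458 FPKM in tumours 1 to 5. Each tumour was below the like-numbered adjacent sample, but the numbers were not taken as pairs and the groups overlapped. By mean level it ranked 153rd of all genes in adjacent tissue and 146th in tumours. Its log2 change of -0.21 (SE 0.08; limma adjusted p = 0.0277) rests on the scaling. Subtracting medians made it -0.54 (limma adjusted p = 0.000144), while quantile normalization turned it to 0.042 (limma adjusted p = 0.624) and scaling to epithelial markers to 0.32 (limma adjusted p = 0.0269). Dropping a single library, namely adjacent 1, 4 or 5 or tumour 1, 3 or 4, ended the call (limma adjusted p of 0.0512 to 0.074).

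The other 5 tested members kept their direction and their call under every scaling. With medians subtracted the log2 changes were -4.72 for Slc13a2, -4.40 for Slc5a8, -2.45 for Slc16a1, -2.10 for Ffar2 and 1.33 for Slc16a3. Scaled to the mean of 9 epithelial markers such as Epcam and Krt8, they were -3.87, -3.55, -1.59, -1.25 and 2.18 in the same order. Both scalings move every tested gene alike, by -0.33 and 0.52. With the epithelial scaling the median of all tested genes was 0.88, and 78.6% of them were called higher and 8.27% lower.

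**Figure D2:**
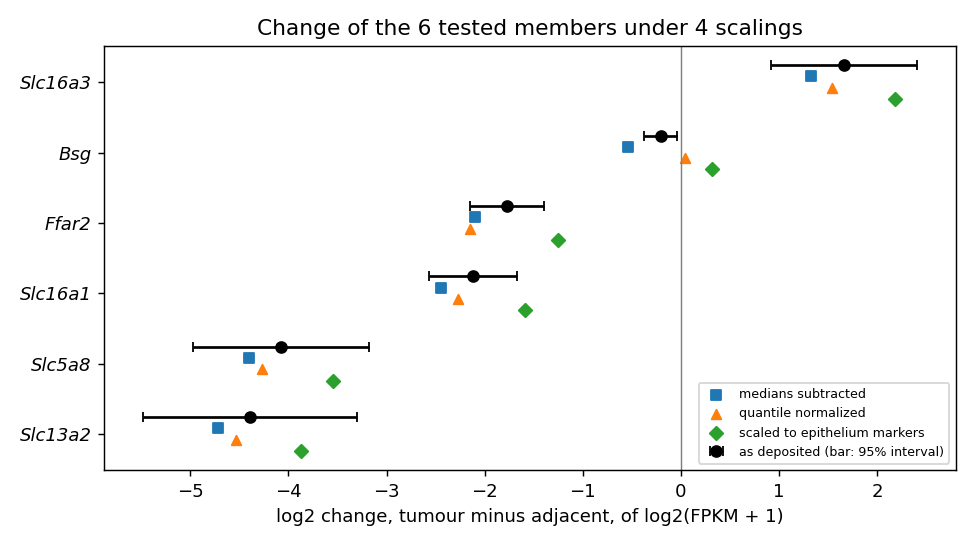
Log2 change of log2(FPKM + 1), tumour minus adjacent, for the 6 tested members under 4 scalings; the bar is the 95% interval of the values as deposited. Slc13a2, Slc5a8, Slc16a1 and Ffar2 stay below 0 and Slc16a3 above 0 under all 4, while Bsg runs from -0.54 to 0.32.

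The balance between genes was compared within each library as the difference of their log2(FPKM + 1) values. For 7 such ratios the groups were compared by an exact two-sided permutation test of the group labels. The log2 difference Slc16a3 minus Slc16a1 was -1.66 ± 0.67 in adjacent samples and 2.12 ± 0.84 in tumours, a shift of 3.78 (exact permutation p = 0.00794, the smallest that 5 against 5 allow; adjusted p = 0.00926 over 7 ratios). Every adjacent sample had more Slc16a1 than Slc16a3 (-2.46 to -0.59), and every tumour had more Slc16a3 than Slc16a1 (0.80 to 2.92). Slc16a3 minus Slc5a8 moved further, from -1.99 ± 0.98 to 3.74 ± 1.23, and Slc16a1 minus Slc5a8 from -0.34 ± 0.37 to 1.62 ± 0.65. Bsg minus Slc16a1 moved from 2.85 ± 0.20 to 4.76 ± 0.42. These 3 ratios did not overlap between groups either and had the same exact p. Slc13a2 minus Slc5a8 was 0.44 ± 0.17 and 0.12 ± 0.40, a difference of -0.32 that did not pass (exact permutation p = 0.143). It did pass without tumour 2, at -0.48 (exact permutation adjusted p = 0.0159).

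Of the summed FPKM of Slc5a8, Slc16a1 and Slc16a3, Slc16a3 made up 6.84% to 26.2% in adjacent samples and 58.1% to 87.1% in tumours. Slc5a8 made up 34.1% to 55.7% in adjacent samples and 2.16% to 13.0% in tumours. The sum of the 3 genes was also lower in tumours, at 68.4 to 106 FPKM against 143 to 207 FPKM.

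**Figure D3:**
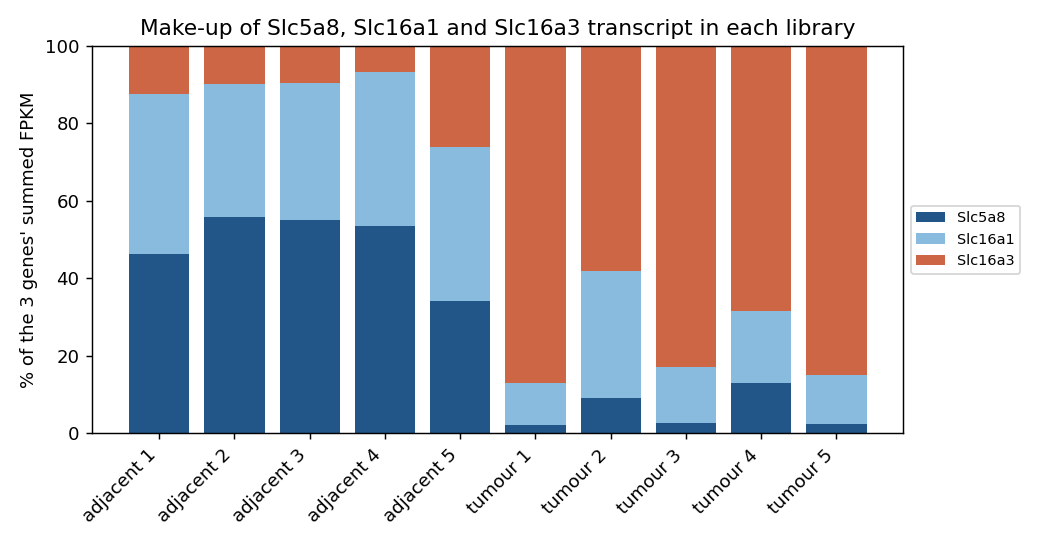
Share of Slc5a8, Slc16a1 and Slc16a3 in the summed FPKM of the 3 genes, in percent, 1 bar per library. Slc16a3 takes 58.1% to 87.1% in the 5 tumours and at most 26.2% in the adjacent samples, the highest being adjacent sample 5.

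The receptors were low throughout. Ffar2, on chromosome 7 (30818031 to 30823775), was at 9.32, 6.05, 8.20, 7.04 and 5.73 FPKM in adjacent samples 1 to 5. In tumours 1 to 5 it was at 0.81, 1.74, 1.15, 2.17 and 1.30 FPKM. All adjacent samples lay above all tumours. The mean was 5.07-fold lower in tumours, and log2(FPKM + 1) changed by -1.77 ± 0.17 (SE; limma adjusted p = 2.07e-05).

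Ffar3, its neighbour on chromosome 7 (30854330 to 30856178), was below the filter. It was at 0.76, 0.64, 0.40 and 0.69 FPKM in adjacent samples 1 to 4 and listed at 0 in adjacent sample 5. It was listed at 0 in tumours 1 and 2 and was at 0.05, 0.03 and 0.05 FPKM in tumours 3 to 5. By a rough estimate of depth, 1 fragment of Ffar3 was worth 0.021 to 0.026 FPKM, so the tumour values stand for about 2 fragments or fewer, against 19 to 31 in the first 4 adjacent samples. In the fit with no filter, in which 14.9% of 19733 genes were called lower, it was called lower (limma adjusted p = 0.00693). The size of that change is set by the pseudocount, which exceeds these levels: it was -0.52 with 1, -1.95 with 0.1 and -0.13 with 5. The ratio of Ffar2 to Ffar3 is not read here, since Ffar3 was at or near 0 in the tumours.

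Markers of several cell types moved with these genes, in a fit that called 57.2% of all tested genes higher and 19.3% lower. Of 9 tested absorptive colonocyte markers 8 were called lower, and their summed level was 3042 to 5023 FPKM in adjacent samples and 206 to 1013 FPKM in tumours. Of 9 general epithelial markers 8 were lower and 1 was higher, with sums of 7738 to 9360 and 4404 to 6639 FPKM. All 7 goblet cell markers were lower, with sums of 12893 to 16802 and 702 to 3005 FPKM. Tumours 2 and 4 had the highest tumour sums, as for Slc13a2, in the absorptive, general epithelial, goblet and fibroblast lists alike. All 7 enteroendocrine markers were lower, with sums of 370 to 1370 and 5.66 to 78.2 FPKM. Adjacent sample 5 had the highest enteroendocrine sum. Pyy gave 827 FPKM of it, while Tph1, at 4.65 FPKM, had its lowest adjacent value there. Of 9 neutrophil markers 7 were higher and 2, Ly6g and Cd177, were lower. The neutrophil sums were 317 to 644 FPKM in adjacent samples and 348 to 599 FPKM in tumours. Ly6g and Cd177 made up most of every adjacent sum. S100a9, among the 7 higher, was at 3.33 to 10.1 FPKM in adjacent samples 1 to 4. It was at 65.8 FPKM in adjacent sample 5 and at 49.1 to 205 FPKM in tumours. Ly6g fell from a mean of 169 to 31.5 FPKM, a log2 change of -2.64, and its groups did not overlap. The neutrophil list therefore gives no single direction. All 6 fibroblast markers were higher, with sums of 77.7 to 195 FPKM and 587 to 978 FPKM. Of macrophage markers 6 of 7 were also called higher, of endothelial markers 5 of 5 and of smooth muscle markers 3 of 6. No marker of the 6 lists with sums given was at 0 in all libraries. In bulk tissue, fewer cells of a type and less RNA per cell cannot be told apart, and the part of these markers in the members' changes was not tested.

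Windows of RefSeq sequence (GRCm38.p6) from 250 bases before to 50 bases after the annotated start were found for 6 of the 8 members. The 4 below are those of the tested carriers, which went in opposite directions, and the receptor windows are not shown. Capitals mark the hypoxia response element cores ACGTG and GCGTG on either strand. They are Slc16a3 at chr11:120948817-120949116 (plus strand), Slc16a1 at chr3:104638414-104638713 (plus strand), Slc5a8 at chr10:88885742-88886041 (plus strand) and Slc13a2 at chr11:78422185-78422484 (minus strand), each written 5′ to 3′ on the gene's strand.
Slc16a3: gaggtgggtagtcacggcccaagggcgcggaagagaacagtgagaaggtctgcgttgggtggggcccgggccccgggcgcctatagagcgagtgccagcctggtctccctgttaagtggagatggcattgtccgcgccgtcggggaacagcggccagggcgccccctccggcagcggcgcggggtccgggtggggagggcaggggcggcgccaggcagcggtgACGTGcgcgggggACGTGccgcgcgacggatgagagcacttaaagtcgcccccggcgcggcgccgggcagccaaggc
Slc16a1: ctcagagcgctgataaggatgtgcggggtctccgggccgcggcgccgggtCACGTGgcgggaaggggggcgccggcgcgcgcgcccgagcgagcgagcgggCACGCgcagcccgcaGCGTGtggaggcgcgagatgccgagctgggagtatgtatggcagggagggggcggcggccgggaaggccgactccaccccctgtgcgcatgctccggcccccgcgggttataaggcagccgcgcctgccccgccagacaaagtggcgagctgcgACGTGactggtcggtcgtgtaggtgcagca
Slc5a8: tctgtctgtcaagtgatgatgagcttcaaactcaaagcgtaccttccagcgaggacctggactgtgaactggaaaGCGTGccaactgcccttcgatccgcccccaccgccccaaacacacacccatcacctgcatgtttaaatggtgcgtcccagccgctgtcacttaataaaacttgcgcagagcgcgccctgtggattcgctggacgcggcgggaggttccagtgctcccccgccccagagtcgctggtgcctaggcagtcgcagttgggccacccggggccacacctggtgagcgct
Slc13a2: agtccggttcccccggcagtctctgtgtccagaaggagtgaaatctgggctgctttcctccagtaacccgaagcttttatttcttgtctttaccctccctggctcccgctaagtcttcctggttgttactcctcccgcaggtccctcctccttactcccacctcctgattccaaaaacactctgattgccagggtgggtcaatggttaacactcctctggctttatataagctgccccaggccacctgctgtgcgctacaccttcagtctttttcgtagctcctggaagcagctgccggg

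The window of Slc16a3 begins at 120948817, past the gene's first base at 120948484, and so surrounds a start inside the gene. This window, of the gene that rose, held ACGTG 2 times and GCGTG 0 times. That of Slc16a1, which fell, held ACGTG 3 times and GCGTG 2 times, and 2 of its ACGTG matches overlap within 1 CACGTG, which reads the same on both strands. Slc5a8 held GCGTG 1 time, and Slc13a2 held neither core. Of the windows not shown, that of Ffar2 at chr7:30823726-30824025 held ACGTG 2 times, both within 1 CACGTG, and GCGTG 1 time. Ffar2 also fell, and its other windows held neither core. Of 32851 such windows in the mouse annotation, 19.6% held ACGTG, 32.4% held GCGTG and 7.15% held CACGTG, so a match is common. The letters TTTAT, the core bound by CDX factors, occurred 2 times in Slc13a2, 1 time in Slc5a8 and 0 times in Slc16a1 and Slc16a3, against 40% of all windows with at least 1. The GC box CCGCCC occurred 3 times in Slc5a8, 1 time each in Slc16a1 and Slc16a3 and 0 times in Slc13a2, against 35.7% of windows. CpG dinucleotides numbered 42 in Slc16a1, 36 in Slc16a3, 20 in Slc5a8 and 8 in Slc13a2, against a median of 7. These matches describe letters only, and no binding or methylation was measured.

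Slc5a8 and Slc13a2 varied most closely together among the libraries. Over the 10 libraries, deviations from the group means correlated at r = 0.94 for Slc5a8 with Slc13a2, 0.80 for Slc16a1 with Slc13a2, 0.71 for Slc5a8 with Slc16a1, 0.70 for Slc13a2 with Ffar2, 0.63 for Slc5a8 with Ffar2 and 0.41 for Slc16a1 with Ffar2. For Slc16a3, r was -0.53 with Ffar2, -0.52 with Slc13a2, -0.42 with Slc5a8 and -0.23 with Slc16a1. Tumours 2 and 4 had Slc13a2 deviations of 1.18 and 1.43 on the log2 scale, against -1.06 to -0.75 in the other 3 tumours. Leaving both out, the log2 changes were -4.73 for Slc5a8, -5.26 for Slc13a2, -2.43 for Slc16a1 and 1.89 for Slc16a3.

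The genes most like each member were sought among the tested genes, 12458 comparisons after leaving out symbols of unnamed gene models, over the same 10 libraries. Because the points share 2 groups, r over all libraries mostly reflects the group difference. Slc13a2 was most like Clca1 (r = 0.999) and Fcgbp (r = 0.997), both on the goblet cell list, and Gfpt1 (r = 0.997). Clca1 and Fcgbp also led on deviations from group means, at r = 0.991 and 0.980. Slc5a8 was most like Nudt19 (r = 0.996), Sult1d1 (r = 0.996), a sulfotransferase, and Slc6a14 (r = 0.995), an amino acid carrier. On deviations it was most like Sult1d1 (r = 0.968), Nudt19 (r = 0.960) and Fcgbp (r = 0.957). Slc16a1 was most like Hk1 (r = 0.995), a hexokinase, Dgkh and Cnst, and on deviations like Cyp2d22 (r = 0.984). Slc16a3 was most like Mboat2 (r = 0.984), Zer1 and Grhl3, an epithelial transcription factor, and on deviations like Ppp1r13l (r = 0.976), Slc11a2, an iron carrier, and Trp53inp1. Ffar2 was most like Tsta3 (r = 0.990), Golgb1 and Cyp2c55. For Bsg no gene exceeded r = 0.926, which was with Gpi1, a glycolytic isomerase.

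The wider SLC16 family had calls in both directions. Of 14 other members and partners, 10 were tested, 7 were called higher and 2 lower, against 57.2% and 19.3% of all tested genes. The median log2 change was 0.78 against 0.35 for all tested genes. With medians subtracted 7 were higher and 3 lower, against 34.5% and 33.3% of all tested genes. Slc16a5 fell from 25.2 ± 4.82 to 1.71 ± 1.70 FPKM (log2 change -3.45, SE 0.34, limma adjusted p = 2.3e-05), and Slc16a9, a carnitine carrier, from 1.65 ± 0.32 to 0.38 ± 0.12 FPKM. Emb, the embigin chaperone that partners MCT2, rose from 1.83 ± 0.63 to 5.9 ± 1.78 FPKM, and Slc16a12, a creatine carrier, from 1.23 ± 0.52 to 4.44 ± 1.51 FPKM. Slc16a5, Slc16a9, Emb and Slc16a12 did not overlap between groups, as for 60.9% of all tested genes. Slc5a12, the related sodium-coupled lactate carrier, was at most 0.02 FPKM in every library.

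Other receptors for fatty acids, lactate and acid, listed with the orphan receptor gene Gpr35, had calls in both directions. Of 11 genes, 7 were tested, 4 were higher and 3 lower, against 57.2% and 19.3% of all tested genes. The median log2 change was 0.85, against 0.35 for all tested genes. With medians subtracted 3 were higher and 3 lower, against 34.5% and 33.3% of all tested genes. Scaled to epithelial markers 4 were higher and 1, Olfr78, lower, against 78.6% and 8.27% of all tested genes. Gpr35 and Ffar4 were not called with that scaling (limma adjusted p = 0.380 and 0.121). Hcar2, the butyrate and niacin receptor GPR109A, rose from 0.92 ± 0.47 to 4.88 ± 2.04 FPKM (log2 change 1.58, SE 0.25, limma adjusted p = 0.000202), opposite to Ffar2. The acid sensor Gpr65 rose by 1.09. Olfr78, a receptor for acetate and propionate, fell from 2.24 ± 0.40 to 0.63 ± 0.18 FPKM, and the orphan receptor gene Gpr35 from 9.87 ± 0.68 to 5.96 ± 0.78 FPKM. Ffar4, a receptor for long-chain fatty acids, fell by 0.96 on the log2 scale, although tumour 2, at 30.2 FPKM, lay within the adjacent range. Hcar1, the lactate receptor, was below the filter, at 0.20 to 0.65 FPKM in adjacent samples and 0.17 to 0.65 FPKM in tumours.

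Genes that activate and burn short-chain fatty acids fell together. All 20 tested genes of 25 were called lower, against 19.3% of all tested genes, with a median log2 change of -0.96. All 20 were also lower with medians subtracted, against 33.3% of all tested genes, and with quantile normalization, against 3934 of 13016. Scaled to epithelial markers 12 were lower and 0 higher, against 8.27% and 78.6% of all tested genes. Acsm3, an acyl-CoA synthetase that activates butyrate, fell from 53.9 ± 10.3 to 7.67 ± 6.42 FPKM (log2 change -2.87, SE 0.34, limma adjusted p = 4.85e-05), with tumour 4 the highest tumour at 19.1 FPKM. Acss2, which activates acetate, fell by 1.73 and Hadh, of beta-oxidation, by 1.11. The falls ran from -2.87 for Acsm3 to -0.39 for Mut, the mutase of propionate breakdown, which was at 0.14 and not called when scaled to epithelial markers. The other 5 genes were below the filter, 3 of them listed at 0 in every library.

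Lactate and pyruvate genes changed in both directions. Of 19 genes tested 5 were higher and 9 lower, against 57.2% and 19.3% of all tested genes. With medians subtracted 1 was higher and 11 lower, against 34.5% and 33.3% of all tested genes. Scaled to epithelial markers 9 were higher and 3 lower, against 78.6% and 8.27% of all tested genes. The list's median log2 change was 0.05 as deposited and 0.57 with the epithelial scaling, below that of all tested genes (0.35 and 0.88) both times. Ldhb, the lactate dehydrogenase subunit that favours lactate use, rose from 4.69 ± 2.33 to 18.4 ± 6.94 FPKM (log2 change 1.78, SE 0.31, limma adjusted p = 0.000469). Ldha, the subunit that favours lactate formation, was far more abundant, at 688 to 894 FPKM in adjacent samples and 465 to 655 FPKM in tumours. Ldha minus Ldhb moved from 7.13 ± 0.61 to 4.90 ± 0.73 in log2 difference (exact permutation p = 0.00794). Pcx, pyruvate carboxylase, fell by 1.87, Pdk2, a kinase that inhibits pyruvate dehydrogenase, by 1.25 and Me2, a mitochondrial malic enzyme, by 1.21. Pdk4 and Pdp1 rose by 0.71 and 0.46, calls that both were lost with medians subtracted (limma adjusted p = 0.123 and 0.392).

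Of 9 other dicarboxylate and anion carriers 6 were tested, 2 higher and 3 lower, against 57.2% and 19.3% of all tested genes. Scaled to epithelial markers 3 were higher and 2 lower, against 78.6% and 8.27% of all tested genes. Slc26a3, the chloride-bicarbonate exchanger, fell from 252.1 ± 81.7 to 4.51 ± 4.45 FPKM. Slc13a1, the sulfate carrier of the Slc13 family, fell by 1.44, and Slc25a10, the mitochondrial dicarboxylate carrier, by 0.48. Slc25a1 and Slc26a6 rose by 0.32 and 0.39, but with medians subtracted their changes were -0.0074 and 0.054 and neither passed.

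Of 24 glycolysis and hypoxia genes tested 4 were higher and 12 lower, with a median log2 change of -0.35. With medians subtracted 1 was higher and 17 lower, and scaled to epithelial markers 11 were higher and 4 lower. The shares of all tested genes were 57.2% higher and 19.3% lower as deposited. They were 34.5% and 33.3% with medians subtracted and 78.6% and 8.27% with the epithelial scaling. The list's median lay below that of all tested genes as deposited (-0.35 against 0.35) and with the epithelial scaling (0.17 against 0.88). Hif1a, at 59.2 ± 7.85 and 62.7 ± 11.6 FPKM, did not pass (limma adjusted p = 0.594). Nor did it with medians subtracted, at -0.25 (limma adjusted p = 0.162). Scaled to epithelial markers it was called higher, at 0.60 (limma adjusted p = 0.000202). The protein was not measured. Pfkfb3, an activator of glycolysis, rose by 1.13, whereas Pfkfb4 fell by 1.32 and the hexokinase Hk1 by 1.23. Gapdh and Pgam1 rose by 0.28 and 0.41, which did not pass with medians subtracted, where Gapdh was at -0.049. Car12, a carbonic anhydrase, fell by 1.71 with tumour 2 at 17.7 FPKM and the other tumours at 0.86 to 2.97 FPKM. As reference genes, Mki67 and Myc rose by 0.96 and 1.28, and Hdac3, a histone deacetylase of the class that butyrate inhibits, by 0.63.

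**Figure D4:**
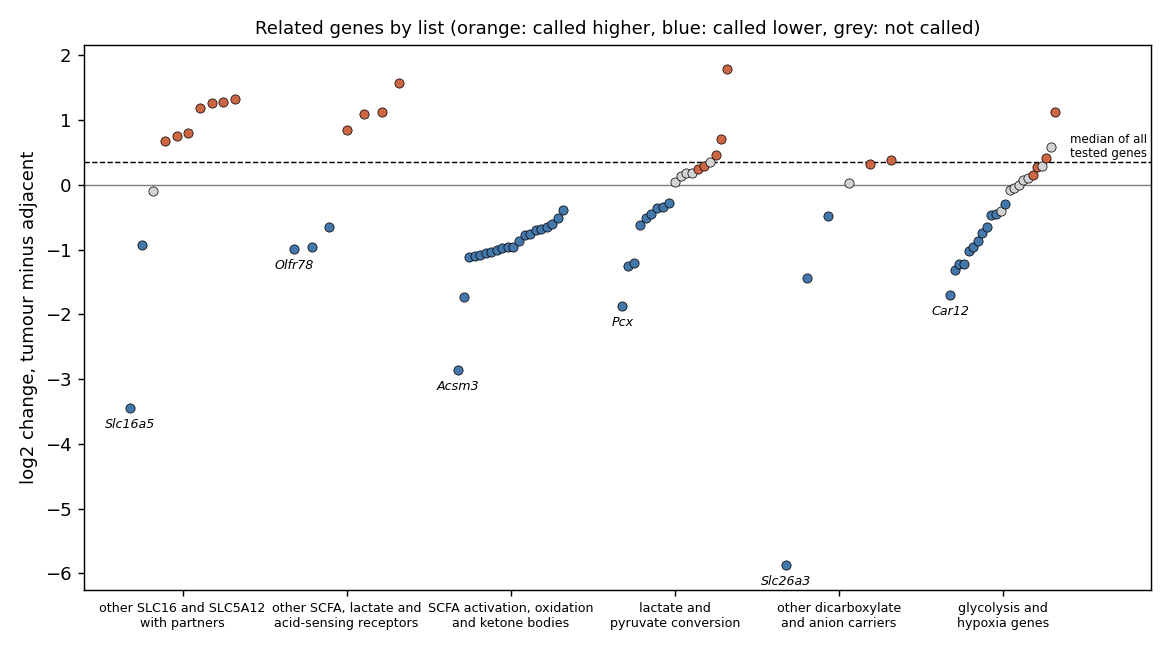
Log2 change, tumour minus adjacent, of each tested gene in 6 related lists; orange points were called higher, blue lower and grey not called, and the dashed line is the median of all tested genes. All 20 genes of short-chain fatty acid use lie below 0, and the lowest gene of each list is named.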

How the data were processed

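RNA from tumour and adjacent colon was selected with oligo-dT and sequenced on an Illumina instrument, per the labels' protocols. The program that made the table is not stated; Cufflinks 2.2.1 and RSEM 1.2.15 are among those listed, with TopHat2 2.1.0 and the build mm10, per the submitters' processing notes. The authors deposited FPKM per gene, per the file headers. Depth is not given; steps between low values put it, roughly, at 20800000 to 26300000 fragments per library (60.7% to 74.9% of 170 to 202 low values per library lay within 0.2 of a whole number, against 40% if spread evenly). Summed FPKM was 462009 to 484712 per library, with 11981 to 13171 genes at 1 FPKM or more. One line of text in the table was left out.

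The fit was limma 3.58.1 in R 4.3.3 on log2(FPKM + 1), group as the only term, with trend and robust empirical Bayes, two-sided, threshold 0.05, over the 13016 genes averaging 1 FPKM or more. It was tested on simulated data. Members, lists and ratios were chosen with earlier results of these data known. Named list genes are up to 3 largest rises and 3 largest falls past the threshold, of which 2 genes are counted but not reported here by name; other genes of the lists named in the text (Ldha, Hcar1, Slc5a12, Mut), and the examples among the markers, were chosen after their values were seen. Genes most like a member are the 3 with the highest Pearson r. Other pseudocounts, filters, scalings, a replicate block and libraries left out were tried.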

Additional observations from a re-analysis of the deposited data

Results flagged for a closer look

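Among 100 sets of 5 libraries checked for a single sample far from the rest, 9 were marked, and chance marks about 5%. Of the members, Slc16a3 stood apart in adjacent sample 5, at 49.5 FPKM against 14.2 to 17.8 FPKM in the other 4. The log2 difference Slc16a1 minus Slc5a8 stood apart in tumour 4, at 0.48 against 1.72 to 2.03 in the other tumours. Acsm3 was at 19.1 FPKM in tumour 4, against 4.25 to 5.53 FPKM in the others. Tumour 2 stood apart for Slc13a1, at 1.87 FPKM against 0.05 to 0.23 FPKM, for Car12, at 17.7 FPKM against 0.86 to 2.97 FPKM, and for Hif1a, at 82.8 FPKM against 54.2 to 61.7 FPKM. Adjacent sample 4 stood apart for Slc26a3, at 393 FPKM against 182 to 237 FPKM, and for Hk1, at 84.1 FPKM against 62.0 to 67.8 FPKM. Adjacent sample 1 had 24.02 FPKM of Mki67, against 17.6 to 19.3 FPKM.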

How the results depend on the processing

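Slc5a8, Slc13a2, Slc16a1, Slc16a3 and Ffar2 kept direction and call in all 19 alternatives, at log2 changes of -4.73 to -3.23, -5.26 to -3.55, -2.45 to -1.59, 1.33 to 2.18 and -2.31 to -0.93. Bsg ran from -0.24 to -0.17 with 1 library left out and was at 0.042 with quantile normalization and 0.32 scaled to epithelial markers, where 2 members were called higher. With medians subtracted 4486 genes were higher and 4329 lower (7442 and 2509 as deposited), and of the 86 tested list genes 12 were higher against 22; quantile normalization gave 4759 and 3934. With the replicate block on the sample numbers, 7534 genes were higher and 2533 lower, and the members' calls stood. Deviations of like-numbered samples correlated at 0.02 to 0.42, and 2 of 5 adjacent samples correlated best with their own number, so the numbers were not taken as pairs. An exact permutation by sign flips within numbers, the block for ratios, cannot go below p = 0.0625, and there the ratio shifts were 3.78, 1.95, 5.73, 1.91, -1.26 and -2.23 (adjusted p = 0.0729) for Slc16a3 minus Slc16a1, Slc16a1 minus Slc5a8, Slc16a3 minus Slc5a8, Bsg minus Slc16a1, Ffar2 minus Ffar3 and Ldha minus Ldhb. Ffar2 minus Ffar3 was at -0.36 with a pseudocount of 0.1, and with Ffar3 near 0 in tumours none of its values is read. Slc13a2 minus Slc5a8 passed at -0.32 with a pseudocount of 5 and at -0.53 without tumours 2 and 4, and ran from -0.48 to -0.20 with 1 library left out. Among other genes, Slc25a1 reversed to -0.0074 and Gapdh to -0.049 with medians subtracted, Slc26a6 to -0.032 with quantile normalization, and Ffar3 to 0.0068 and Slc16a7 to 0.49 scaled to epithelial markers, which adds 0.52 to every gene; Slc16a7 ran from -0.15 to 0.037 with 1 library left out. Car12 and Gapdh each lost the call in 2 of 10 fits with 1 library left out. Subtracting medians adds -0.33 to every gene past the filter, and the cause of the other changes was not tested. Depth limits Ffar3, at about 2 fragments or fewer in tumours.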
